A study of Mus musculus with 13 samples.

Results

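The kinesin superfamily genes studied here are the protein-coding mouse genes whose symbol starts with Kif or Kifc followed by a digit, with 1 gene left out, which gave 42 members of the 22442 genes in the Ribo-seq files. They were chosen by symbol and not by any measured value. In Ribo-seq, RNase I digests all RNA except the footprints covered by ribosomes, and these ribosome-protected fragments (RPFs) are sequenced, so a count on a coding sequence (CDS) reflects both the amount of an mRNA and its occupancy by ribosomes. The 11 Ribo-seq libraries came from oocytes labelled germinal vesicle (GV) or metaphase II (MII). GV oocytes are arrested in prophase of the first meiotic division, and MII oocytes have normally completed that division and extruded a polar body. The paper reports arrest at metaphase I for most superovulated Nat10-ZcKO oocytes. Whether the Nat10-ZcKO libraries labelled MII hold such oocytes is not stated. There were 3 WT GV, 3 Nat10-ZcKO GV, 2 WT MII and 3 Nat10-ZcKO MII libraries, each from a pool of oocytes. The study's methods give the C57BL/6J background for all mice. They describe GV oocytes from young females given pregnant mare's serum gonadotropin (PMSG). Superovulated oocytes came from the oviduct after PMSG and human chorionic gonadotropin (hCG). Which collection each Ribo-seq library used is not stated. If it followed these, hCG and stage cannot be told apart. In Nat10-ZcKO females, floxed Nat10 alleles are recombined by Cre under the Zp3 promoter, which is active in growing oocytes from the primary follicle on, so that surrounding follicle cells keep the gene; the series record also names a tamoxifen injection, which the study's methods do not give for this oocyte model. Nat10 encodes the acetyltransferase that writes N4-acetylcytidine (ac4C) on RNA. In addition, 1 anti-ac4C and 1 anti-IgG library (acRIP-seq) were made from pooled WT GV oocytes of C57BL/6J mice. No label says whether replicates came from separate animals, so p-values measure only the spread between these libraries.

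Kinesins are motors that couple ATP hydrolysis to movement along microtubules or, in the kinesin-13 family, to taking microtubule ends apart. One set works on the spindle and chromosomes: chromokinesins push on chromosome arms, kinesin-8 and kinesin-13 motors set microtubule length, the minus-end-directed kinesin-14 motor Kifc1 focuses spindle poles, and the kinesin-6 motors build the central spindle on which the cleavage furrow forms. The other set carries vesicles, organelles and ciliary components. The mouse oocyte builds its spindles without centrosomes, and its division is highly asymmetric, so that polar body extrusion depends on the same midzone motors as cytokinesis. By symbol, 14 members belong to the spindle and chromosome set and 27 to the transport and cilium set. The remaining member, Kif1bp, encodes a protein that binds kinesin motors and is not itself a motor.

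The stretch that all motor members share is the ATP-binding loop. A search of the translated CDS for the loop pattern (glycine, any residue, threonine or serine, any pair of residues, glycine, lysine, then threonine or serine) found it in 39 of the 42 members. It was not found in Kif1bp, Kif26a or Kif26b. Shown, as a choice of members described with their values, are spindle and chromosome motors (Kif23, Kif20b, Kif2c, Kif18a and Kif14), the transport motor Kif17, and the near-identical pair Kifc1 and Kifc5b, whose shared bases bear on how their reads can be assigned. Each is read 5′ to 3′ on the coding strand from GENCODE M21 (GRCm38), lies within 1 coding exon, and has the codons of the loop in capitals with 1 codon on either side.
Kif23, chr9:61937175-61937204, minus strand: tatGGCGTGACGGGAAGTGGAAAAACCtac
Kif20b, chr19:34929783-34929812, plus strand: tatGGTCTGACCAATTCTGGAAAAACAtat
Kif2c, chr4:117167294-117167323, minus strand: tatGGACAGACAGGCAGTGGGAAGACAcat
Kif18a, chr2:109289687-109289716, plus strand: tatGGTGCCACTGGATCTGGGAAAACTcac
Kifc1, chr17:33883381-33883410, minus strand: tatGGACAGACAGGCAGTGGCAAGACCttc
Kifc5b, chr17:26924477-26924506, plus strand: tatGGACAGACAGGCAGTGGCAAGACCttc
Kif14, chr1:136471543-136471572, plus strand: tatGGCCAGACTGGCTCTGGAAAGTCCtat
Kif17, chr4:138268981-138269010, plus strand: tatGGCCAGACAGGCAGTGGGAAGTCTttc
Over the bases in capitals the other members shown differ from Kif23 at 7 to 9 positions, and Kifc1 and Kifc5b differ from each other at 0. The position of the loop follows the known layout of the families: it starts 11.8% of the way along the CDS of Kif23, where the motor is N-terminal, 47.7% along that of Kif2c, where it is internal, and 61.0% along that of Kifc1, where it is C-terminal.

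How well a short RPF can be assigned to 1 member was measured by cutting each CDS into windows of 28 nucleotides and looking for them in transcripts of other genes. Kifc1 shared 76.2% of its windows and Kifc5b 71.6%, mostly with each other, so counts on this pair could have been split between them or dropped by the counting. Kif2c shared 9.04% and Kif22 5.38% of windows with other genes. Each of the other members shared under 2%.

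The libraries held 4815 to 279464 RPF counts on all genes. A count of 0 therefore allows up to 10.7 CPM (a gene's count divided by all counts of its library, on the usual CPM scale) in the deepest library and up to 623 CPM in the shallowest, taking 3 counts as the limit. Intervals and limits cover counting error only. 3 libraries stood apart. WT MII replicate 2 was the shallowest, with 26 kinesin RPFs on 4 members, and 11 of 12 oocyte markers were at 0 in it. In Nat10-ZcKO GV replicates 1 and 2 the oocyte markers took 0.0212% and 1.54% of counts, against 5.61% to 11.1% in the other GV libraries, and adipocyte markers took 1.32% and 0.282%, against at most 0.0272% in the other libraries. The 8 remaining libraries (3 WT GV, Nat10-ZcKO GV replicate 3, WT MII replicate 1 and 3 Nat10-ZcKO MII) are called the deeper libraries. In the deeper MII libraries the oocyte markers took 1.10% to 1.32% of counts, and granulosa and cumulus markers took 0.217% to 0.558% of counts over both stages. The part of other cell types in the kinesin values was not tested. Nat10 itself had 8, 11 and 3 counts in WT GV, 4, 1 and 5 in Nat10-ZcKO GV, 1 and 5 in WT MII, with 6, 3 and 2 in Nat10-ZcKO MII. Pooled over libraries that is 42.2 CPM (exact 95% interval 26.5 to 63.9) in WT GV. In Nat10-ZcKO GV it is 26.9 CPM (12.9 to 49.5). These counts cover the whole CDS and not only the exons that Cre removes, and they are too few to check the genotype labels, which are used as given.

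In all, 4588 RPFs fell on kinesin CDSs, and 39 of the 42 members had at least 1. Kif12, Kif2b and Kif27 had none in any library. 10 members had 100 or more RPFs over the 11 libraries, 10 had fewer than 10 (the 3 without any included), and 18 were present in each of the 8 deeper libraries. Per length, in TPM, in which counts are divided by CDS length before they are scaled to the library, Kif23 stood first in WT GV oocytes at 210 ± 23.0 TPM (SD, n = 3), and its lowest library was above the highest library of every other member. Kif20a followed at 90.9 ± 32.5 TPM, Kif2c at 65.8 ± 9.23, Kif14 at 65.1 ± 12.9, Kif3a at 58.5 ± 26.1, Kif4 at 55.3 ± 9.67 and Kif1bp at 51.4 ± 19.2 TPM. From Kif20a to Kif1bp neighbouring members overlapped in their libraries, so their order is not resolved by this spread.

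**Figure D1:**
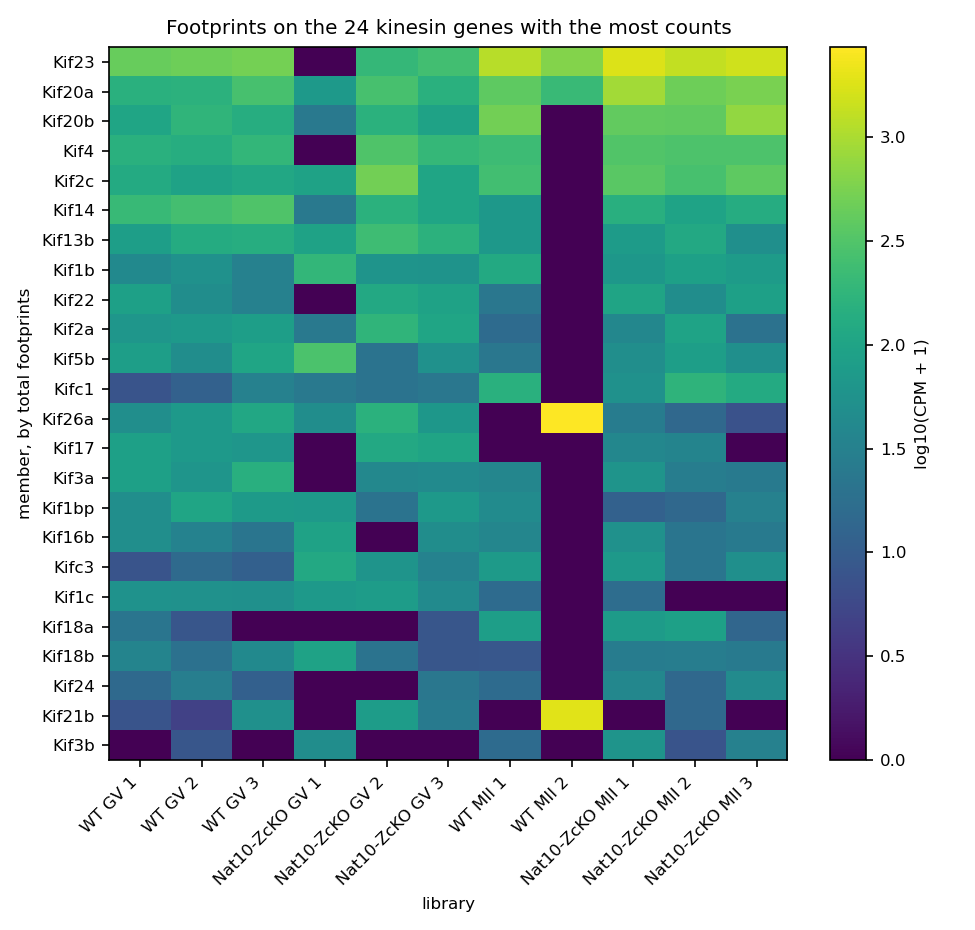
RPFs on the 24 kinesin genes with the most counts (rows) in each of the 11 libraries (columns), as log10(CPM + 1). Kif23 is brightest in most libraries, and WT MII 2 is dark except for a few members, Kif26a among them. In the columns of the deeper libraries, Kif17, Kif26a and Kif1c are darker at MII than at GV.

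The question of the stage comparison is which kinesin mRNAs are occupied by ribosomes before and after meiotic maturation. Summed over the members, kinesins were at 2090, 2233 and 2611 CPM in WT GV and at 1629, 2862 and 1927 CPM in Nat10-ZcKO GV libraries. They were at 3404 and 5400 CPM in WT MII and 4879, 3837 and 4340 CPM in Nat10-ZcKO MII libraries. No MII library overlapped a GV library in CPM; for WT MII replicate 2 the sum rests on 26 counts, with an exact 95% interval of 3530 to 7902 CPM, and TMM scaling, which takes library composition into account, puts it at 746 CPM, below all GV libraries. Group means were 2311 ± 269 CPM (SD, n = 3) in WT GV, 2139 ± 643 (n = 3) in Nat10-ZcKO GV, 4402 ± 1411 (n = 2) in WT MII and 4352 ± 521 (n = 3) in Nat10-ZcKO MII. CPM is a share of all RPFs in a library, so fewer ribosomes on other mRNAs and more on kinesin mRNAs cannot be told apart, nor can fewer cells of a type and less RNA per cell.

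The net difference in sums lay almost wholly in the kinesin-6 family, Kif20a, Kif20b and Kif23, while rises and falls in other families largely cancelled. Their sum was 681, 802 and 926 CPM in WT GV. It was 494 CPM in Nat10-ZcKO GV replicate 3. It was 2032 CPM in WT MII replicate 1 and 3118, 2195 and 2824 CPM in Nat10-ZcKO MII. Over the deeper libraries the mean was 726 ± 184 CPM at GV and 2542 ± 514 CPM at MII (SD, n = 4 each), 3.50-fold higher, which made up 95.6% of the difference in the kinesin total between stages. The other 39 members together had 1490 ± 131 CPM at GV and 1573 ± 167 CPM at MII, ranges that overlapped. Within these 39, families differed in direction. Kinesin-14 had 46.7 ± 13.8 CPM at GV and 192 ± 44.4 at MII, and kinesin-13 had 207 ± 17.6 and 381 ± 75.6. Kinesin-4 had 212 ± 36.0 and 306 ± 37.6 (overlapping with TMM scaling only), and kinesin-8 had 35.7 ± 20.7 and 85.9 ± 34.0 (overlapping). Kinesin-2 had 168 ± 32.1 and 86.4 ± 45.6, and kinesin-1 had 91.8 ± 47.4 and 65.5 ± 23.3 (both overlapping). Kinesin-3 had 495 ± 63.1 and 334 ± 33.6, and kinesin-11 had 78.4 ± 27.4 and 13.3 ± 12.3 CPM. Of the net difference, the spindle and chromosome set made up 114% and the transport and cilium set -11.1%. With TMM scaling the kinesin-6 fold was 3.65 and with median-of-ratios scaling 3.55, and none of these families changed direction under either. The deeper GV libraries are mostly WT and the deeper MII libraries mostly Nat10-ZcKO, so stage and genotype overlap in part in these means, but the kinesin-6 sum did not overlap between stages within either genotype among them. In the libraries that stood apart it was 94.4 and 619 CPM in Nat10-ZcKO GV replicates 1 and 2 and 831 CPM, from 4 counts, in WT MII replicate 2. The spindle and chromosome set thus held 65.4% to 67.4% of kinesin RPFs in WT GV, 59.4% in Nat10-ZcKO GV replicate 3, 84.3% in WT MII replicate 1 and 86.3% to 90.5% in Nat10-ZcKO MII. In the libraries that stood apart this share was 24.6% and 66.9% in Nat10-ZcKO GV replicates 1 and 2 and 15.4% in WT MII replicate 2, where Kif26a alone held 13 and Kif21b 9 of the 26 RPFs.

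**Figure D2:**
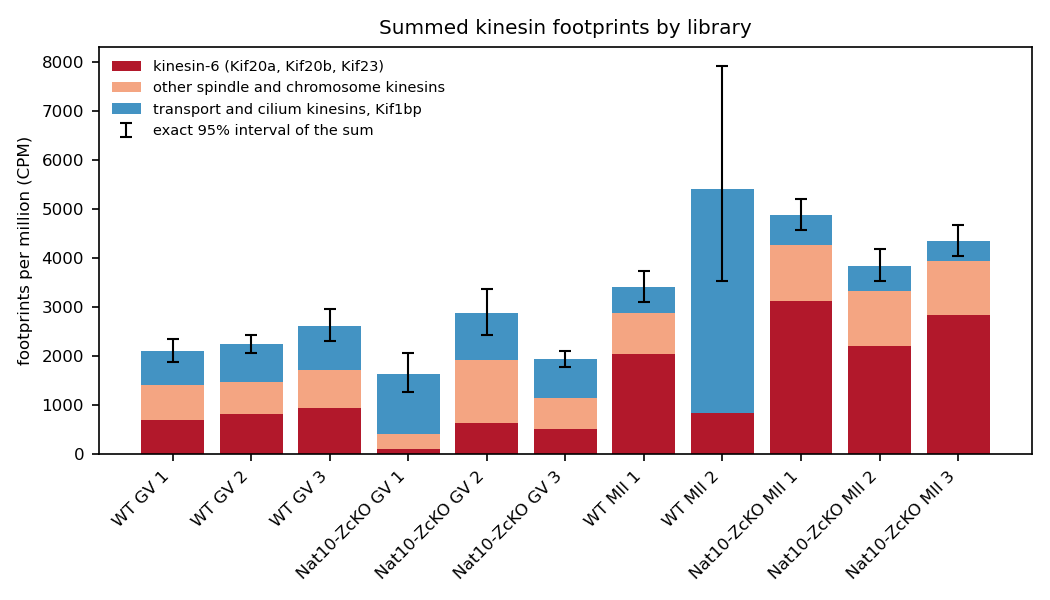
Summed kinesin RPFs in CPM in each library, split into the kinesin-6 family, the other spindle and chromosome kinesins, and the transport and cilium kinesins with Kif1bp; bars on top are exact 95% intervals of the sum. The kinesin-6 part is 494 to 926 CPM in the 4 deeper GV libraries and 2032 to 3118 CPM in the 4 deeper MII libraries.

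Kif23 (ENSMUSG00000032254.10, chr9:61915905-61946774), which with Racgap1 forms centralspindlin, the complex that bundles midzone microtubules, was at 426, 469 and 520 CPM in WT GV and at 0, 193 and 249 CPM in Nat10-ZcKO GV. It was at 1157 and 623 CPM in WT MII, the latter from 3 counts, and at 1804, 1322 and 1534 CPM in Nat10-ZcKO MII. In CPM all MII libraries lay above all GV libraries, which for WT MII replicate 2 rests on the 3 counts. With TMM scaling the kinesin-6 sum of that library, which includes Kif23, was 115 CPM. This is below the 916 to 1080 CPM of the WT GV libraries with the same scaling. With genotype as a term and all 11 libraries, edgeR's quasi-likelihood test gave a log2 fold change of 2.24 ± 0.90 (SE) and an adjusted p of 0.038. In the 8 deeper libraries it was 1.77 ± 0.29 with an adjusted p of 1.7e-05.

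Kif20b (ENSMUSG00000024795.11, chr19:34922361-34975745), a midzone motor of late cytokinesis, was at 103, 175 and 135 CPM in WT GV and at 23.6, 155 and 93.8 CPM in Nat10-ZcKO GV. It was at 497 and 0 CPM in WT MII and at 399, 395 and 745 CPM in Nat10-ZcKO MII. The 0 in WT MII replicate 2 allows 623 CPM, and the other MII libraries were all above the GV libraries. The log2 fold change was 1.99 ± 0.65 with an adjusted p of 0.012 over all libraries and 1.95 ± 0.36 with an adjusted p of 7.9e-05 in the deeper ones (edgeR). Kif20a, which brings the chromosomal passenger complex to the midzone, was at 151, 157 and 270 CPM in WT GV and at 70.8, 271 and 152 CPM in Nat10-ZcKO GV. It was at 378 and 208 CPM in WT MII, the latter from 1 count, and at 915, 477 and 545 CPM in Nat10-ZcKO MII. Its log2 fold change over all libraries was 1.44 ± 0.66 with an edgeR adjusted p of 0.068, and in the deeper libraries it was 1.37 ± 0.33 with an adjusted p of 0.00098.

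Over all 11 libraries, 8 members had enough counts to be tested. Of these, 2 were higher at MII (Kif23 and Kif20b) and 0 lower at an edgeR adjusted p under 0.05, against 42.9% of 2000 genes tested in either direction, 19.1% higher and 23.8% lower. Without adjustment, 3 passed a p of 0.05 upward and 0 downward, beside 22.9% and 28.4%. DESeq2 called Kif20a, Kif20b and Kif23 higher and Kif13b and Kif14 lower, beside 16.5% and 44.5% of genes (61.0% in all): with its size factors the median log2 fold change of all genes was -0.82, and Kif4 was at -0.012. Without the 3 libraries that stand apart, 9 were tested and 6 called, 4 higher (Kif23, Kif20b, Kif20a and Kif2c) and 2 lower (Kif2a and Kif13b), against 70.2% of 2185 genes, 33.9% higher and 36.3% lower. The median log2 fold change of the members tested by edgeR was 0.63 over all libraries, beside -0.19 over all genes tested, and 0.40 beside -0.07 in the deeper libraries. With DESeq2 over all libraries the median of the 8 members was 0.07, beside -0.82. Over the 39 members with at least 1 count it was -0.46 by edgeR, beside -0.80 over all such genes, with 16 positive and 23 negative. A large share of all genes differs between the stages, and whether the share of kinesins called differs from that background was not tested. Both calls over all libraries depended on single libraries: leaving out 1 library at a time, Kif23 kept its call in 1 of 11 fits, the one without WT MII replicate 2 (adjusted p = 0.0050), with adjusted p up to 0.17 in the others. Kif20b kept its call in 5 of 11 and lost it without WT GV replicate 1 or 3, Nat10-ZcKO GV replicate 3, WT MII replicate 1, or Nat10-ZcKO MII replicate 1 or 3, with adjusted p up to 0.096.

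**Figure D3:**
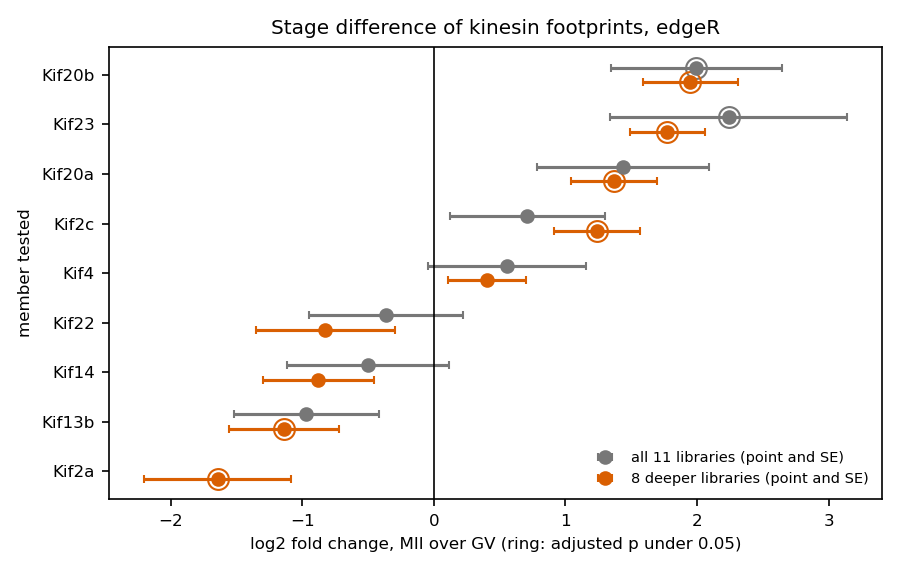
Log2 fold change of MII over GV with its SE for the kinesin genes tested by edgeR with genotype as a term, over all 11 libraries (grey) and the 8 deeper libraries (orange); rings mark an adjusted p under 0.05. The 3 kinesin-6 genes lie between 1.37 and 2.24 in both fits, and Kif2a, which was tested only in the deeper libraries, lies at -1.64.

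Other spindle kinesins moved separately from one another. Kif2c, the centromeric microtubule depolymerase, was at 124, 93.0 and 114 CPM in WT GV and at 94.4, 503 and 105 CPM in Nat10-ZcKO GV. It was at 245 and 0 CPM in WT MII and at 356, 273 and 376 CPM in Nat10-ZcKO MII. One GV library, Nat10-ZcKO GV replicate 2, was above every MII library, while the deeper libraries did not overlap. Its log2 fold change was 0.71 ± 0.59 over all libraries (edgeR adjusted p = 0.32) and 1.24 ± 0.33 in the deeper ones (adjusted p = 0.0023).

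Kif2a, the depolymerase of the same kinesin-13 family that acts at spindle poles, had the opposite sign. It was at 61.9, 68.0 and 83.2 CPM in WT GV and at 23.6, 174 and 105 CPM in Nat10-ZcKO GV, against 14.8 and 0 CPM in WT MII and 37.2, 95.4 and 18.8 CPM in Nat10-ZcKO MII. The deeper libraries of the stages overlapped through Nat10-ZcKO MII replicate 2. In these the log2 fold change was -1.64 ± 0.56 with an edgeR adjusted p of 0.013.

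Kif4, a chromokinesin that works with Prc1 at the midzone, was at 151, 136 and 187 CPM in WT GV and at 0, 309 and 191 CPM in Nat10-ZcKO GV. It was at 222 and 0 CPM in WT MII and at 314, 300 and 301 CPM in Nat10-ZcKO MII. Its log2 fold change of 0.56 ± 0.60 over all libraries had an edgeR adjusted p of 0.45, and 0.40 ± 0.30 in the deeper ones had 0.23, although the deeper libraries did not overlap. Kif22, a chromokinesin of the polar ejection force, was at 89.4, 46.5 and 31.2 CPM in WT GV and at 0, 116 and 93.8 CPM in Nat10-ZcKO GV, against 22.2 and 0 CPM in WT MII and 101, 47.7 and 87.7 CPM in Nat10-ZcKO MII. These ranges overlapped. The log2 fold change was -0.36 ± 0.59 over all libraries (edgeR adjusted p = 0.63) and -0.82 ± 0.53 in the deeper ones (adjusted p = 0.17).

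Kif14, which recruits citron kinase to the midbody, was at 206, 250 and 302 CPM in WT GV and at 23.6, 155 and 105 CPM in Nat10-ZcKO GV. It was at 66.7 and 0 CPM in WT MII and at 144, 95.4 and 132 CPM in Nat10-ZcKO MII. It was the second member by RPFs in WT GV, with 10.9% of the kinesin counts, and held 2.70% in the deeper MII libraries. Over all libraries the stage difference with genotype as a term was -0.50 ± 0.62 on the log2 scale (edgeR adjusted p = 0.52). In the deeper libraries it was -0.88 ± 0.42 (edgeR adjusted p = 0.068). In WT alone, with all libraries in the fit, it was -2.62 ± 1.30 (unadjusted p = 0.043 and adjusted p = 0.20 by edgeR).

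Kifc1 and Kif18a had low counts at GV. Kifc1 (ENSMUSG00000079553.11) was at 6.87, 10.7 and 31.2 CPM in WT GV and at 23.6, 19.3 and 21.7 CPM in Nat10-ZcKO GV, from 1 to 6 counts each. It was at 148 and 0 CPM in WT MII and at 53.2, 170 and 125 CPM in Nat10-ZcKO MII, from 10 to 25 counts where present. In the deeper libraries every MII value was above every GV value, and the ratio of means was 7.06. Its partner in sequence, Kifc5b, had 0 to 3 counts in each library. Kif18a, which damps chromosome movement at the metaphase plate, had 3, 2 and 0 counts in WT GV, with 0, 0 and 2 in Nat10-ZcKO GV, against 11 and 0 in WT MII, with 14, 13 and 2 in Nat10-ZcKO MII. Its deeper libraries overlapped between the stages. Both lay under the count filter of the fit with genotype as a term and were tested within genotypes.

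Among the transport and cilium kinesins, RPFs were mostly lower at MII: the set had 709 ± 82.0 CPM at GV and 499 ± 94.3 CPM at MII in the deeper libraries, with no overlap. Kif17, a kinesin-2 motor of dendrites and cilia, was at 89.4, 71.6 and 62.4 CPM in WT GV and at 0, 116 and 101 CPM in Nat10-ZcKO GV. It had 0 counts in both WT MII libraries and 37.2, 34.1 and 0 CPM in Nat10-ZcKO MII. Taking 3 counts over both WT MII libraries as the limit allows 21.5 CPM there. The pooled WT GV value of 74.8 CPM was 3.48 times this limit, without the counting error of the WT GV value. Kif26a, a divergent kinesin-11 protein without motor activity, was at 48.1, 68.0 and 114 CPM in WT GV and at 47.2, 155 and 65.0 CPM in Nat10-ZcKO GV. It was at 0 and 2700 CPM in WT MII and at 26.6, 13.6 and 6.26 CPM in Nat10-ZcKO MII. Kif1c, a kinesin-3 motor of vesicles, was at 55.0, 53.7 and 52.0 CPM in WT GV and at 70.8, 77.4 and 43.3 CPM in Nat10-ZcKO GV, 14.8 and 0 CPM in WT MII and 16.0, 0 and 0 CPM in Nat10-ZcKO MII. In the deeper libraries all MII values of Kif17, Kif26a and Kif1c lay below all GV values.

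Kif13b, a kinesin-3 motor of membrane cargo, was at 82.5, 129 and 135 CPM in WT GV and at 94.4, 232 and 159 CPM in Nat10-ZcKO GV. It was at 66.7 and 0 CPM in WT MII and 74.5, 116 and 50.1 CPM in Nat10-ZcKO MII. Its log2 fold change was -0.97 ± 0.55 over all libraries (edgeR adjusted p = 0.15) and -1.14 ± 0.42 in the deeper ones (adjusted p = 0.019). Kif5b, the widely expressed kinesin-1 heavy chain, ranged from 46.5 to 104 CPM in WT GV and from 22.2 to 81.8 CPM in the deeper MII libraries, which overlapped, and reached 283 CPM in Nat10-ZcKO GV replicate 1, where it was the first member. Some members of the set had higher means at MII. Kif1b, a kinesin-3 motor of mitochondria and vesicles, was at 31.2 to 57.7 CPM in the deeper GV and 63.8 to 119 CPM in the deeper MII libraries, although it reached 189 CPM in Nat10-ZcKO GV replicate 1. Kifc3, a minus-end-directed kinesin-14 motor, was at 6.87 to 32.5 and 20.4 to 74.2 CPM, and Kif3b, a kinesin-2 motor of cilia, at 0 to 7.16 and 6.82 to 58.5 CPM, and both overlapped. Kif1bp was at 48.1 to 104 CPM in the deeper GV and 10.6 to 44.5 CPM in the deeper MII libraries.

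Counted over the deeper libraries, 7 of the 42 members had every MII value above every GV value (Kif1b, Kif20a, Kif20b, Kif23, Kif2c, Kif4 and Kifc1), beside 5.41% of all genes. The opposite held for 4 members (Kif17, Kif1bp, Kif1c and Kif26a), beside 6.49% of all genes. Among the 10 members with 100 or more counts, a limit chosen after the values were seen, 6 were above and 0 below, beside 31.1% and 30.5% of 2198 such genes. This limit left out all 4 members that lay below: Kif26a (86 counts), Kif17 (85), Kif1bp (81) and Kif1c (52). Of the members that lay above it left out Kifc1 (90 counts).

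**Figure D4:**
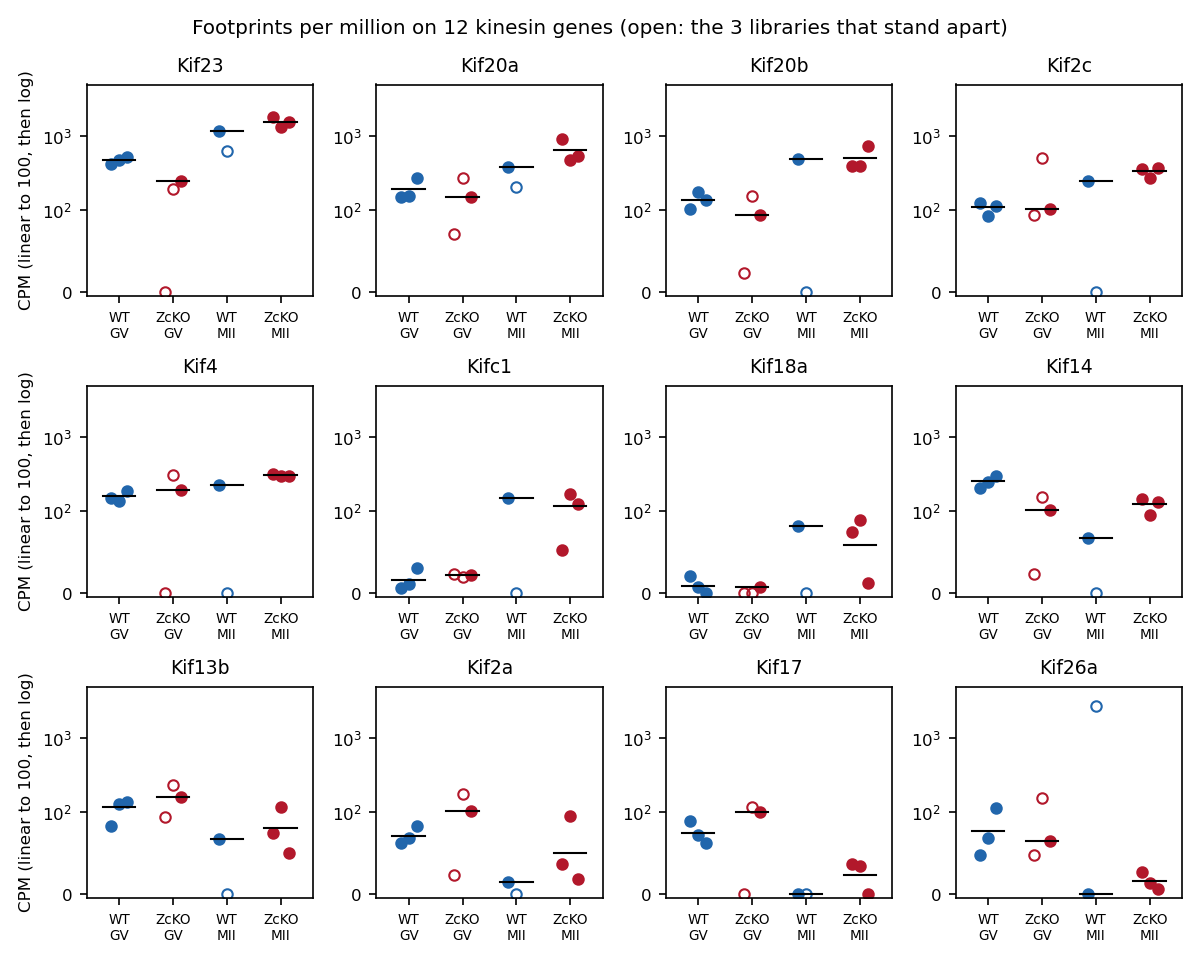
CPM of 12 kinesin genes in every library, with WT in blue and Nat10-ZcKO in red; open circles are the 3 libraries that stand apart, lines are means of the filled circles, and the axis is linear up to 100 CPM and logarithmic above. Kif23, Kif20a, Kif20b, Kif2c, Kif4 and Kifc1 have all filled MII points above all filled GV points, and Kif17 and Kif26a all below.

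The partners of these motors were taken from a list of 29 cargo adaptors, light chains, dynein and dynactin subunits and spindle factors. In the fit of stage over all libraries 10 were tested, of which 4 were higher and 1 lower at MII by edgeR, beside 19.1% and 23.8% of genes, with a median log2 fold change of 0.99 beside -0.19. Prc1, the midzone bundler that Kif4 and Kif20a bind, was at 117, 104 and 93.6 CPM in WT GV and at 118, 135 and 93.8 CPM in Nat10-ZcKO GV, against 1268 and 0 CPM in WT MII and 1761, 961 and 1421 CPM in Nat10-ZcKO MII. Its log2 fold change was 3.31 ± 0.80 with an edgeR adjusted p of 0.0011. Every library with a count at MII was above every GV library.

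The others that rose were Tpx2, a spindle assembly factor, by 2.22 ± 0.64 on the log2 scale (edgeR adjusted p = 0.0046), Klc1, a kinesin-1 light chain, by 1.62 ± 0.55 (adjusted p = 0.016), and Racgap1, the partner of Kif23 in centralspindlin, by 1.61 ± 0.60 (adjusted p = 0.028). Dctn1, the large dynactin subunit, fell by 1.38 on the log2 scale (SE 0.57, edgeR adjusted p = 0.044). Cenpe, itself a kinetochore kinesin whose symbol is outside the rule, had 1.77 ± 0.81 with an edgeR adjusted p of 0.068, and Dync1h1, the dynein heavy chain, had -1.38 ± 0.72 with 0.11. In the 8 deeper libraries Cenpe was at 260 to 468 CPM at GV and 890 to 1117 CPM at MII, and Dync1h1 at 495 to 686 and 213 to 340 CPM, without overlap for either. Without the 3 libraries that stand apart 11 partners were tested and 5 were higher and 3 lower, beside 33.9% and 36.3% of 2185 genes (70.2% in all). In that fit Cenpe was at 1.46 ± 0.26 and Dync1h1 at -1.17 ± 0.26 (edgeR adjusted p = 6.3e-05 and 0.00059). Without WT MII replicate 1 alone, 0 of 13 were called, beside 19.1% of 2306 genes.

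Within WT alone, in the fit of 4 groups, 0 of 20 members tested were called between MII and GV by edgeR, beside 1.55% of 3863 genes. At an unadjusted p under 0.05 there were 3, beside 22.7% of genes, and DESeq2 called 0, beside 7.69%. Over all genes edgeR called 39 higher and 21 lower, 125 and 33 with library-size scaling, and DESeq2 73 and 224. Kif17 and Kif14 were on the lower side and Kifc1 on the higher, at a log2 fold change of 2.48 ± 1.13 (edgeR unadjusted p = 0.028, adjusted p = 0.17). For Kif17 the unadjusted p was 0.0032 and the edgeR adjusted p 0.076. Kif26a had a log2 fold change of 0.64 ± 1.07 in this fit, and -6.70 ± 2.10 (adjusted p = 0.016) without the libraries that stand apart, since its only WT MII counts were the 13 of replicate 2; against a library at 0 this fitted value depends on the prior count and is no bound. Without those libraries WT MII is 1 library, assumed to vary like the other groups, and 6 of 18 members were called, 3 higher (Kif23, Kif20b and Kifc1) and 3 lower (Kif17, Kif26a and Kif14), beside 31.0% of 4029 genes, 15.3% higher and 15.6% lower.

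Within Nat10-ZcKO, 0 of 20 members were called by edgeR, beside 7.9% of genes, 6 had an unadjusted p under 0.05, beside 27.8%, and DESeq2 called 2 (Kif23 and Kif1c), beside 30.7%. Over all genes edgeR called 165 higher and 140 lower, 385 and 521 with library-size scaling, and DESeq2 290 and 896. Those on the higher side were Kif23 at 3.39 ± 1.51, Kif18a at 3.38 ± 1.41, Kif20b at 2.71 ± 1.25 and Kifc1 at 2.55 ± 1.04 on the log2 scale, with edgeR adjusted p from 0.096 to 0.14. Those on the lower side were Kif1c at -2.99 ± 1.28 and Kif26a at -2.19 ± 1.04, with adjusted p of 0.11 and 0.15. Without the 3 libraries, Nat10-ZcKO GV is 1 library under the same assumption, and 8 of 18 members were called, 5 higher (Kif23, Kif20a, Kif20b, Kif2c and Kifc1) and 3 lower (Kif17, Kif26a and Kif1bp), beside 43.1% of genes, 20.4% higher and 22.7% lower.

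The comparison of genotypes addresses whether oocyte loss of Nat10 changes these RPFs. At GV, 0 of 10 members tested were called by edgeR, and 0 had an unadjusted p under 0.05, beside 0.0% and 5.27% of 1765 genes, and DESeq2 called 0, beside 0.17%. Kif23 was lower in all Nat10-ZcKO GV libraries (0 to 249 CPM) than in all WT GV libraries (426 to 520 CPM), with a log2 fold change of -1.36 ± 0.86 (edgeR adjusted p = 0.91). Kif14 likewise did not overlap, at 23.6 to 155 CPM against 206 to 302 CPM, with -1.16 ± 0.65 (adjusted p = 0.91). Kif3a was also lower without overlap, at 0 to 43.3 CPM against 60.8 to 146 CPM in WT GV. Higher without overlap were Kif1b (57.7 to 189 against 31.2 to 53.7 CPM) and Kifc3 (32.5 to 118 against 6.87 to 14.3 CPM). Kif3a, Kif1b and Kifc3 were not among the 10 members tested. The share of all genes without overlap at GV was not counted, so these members cannot be set against a background and are a description only. For all these genes the Nat10-ZcKO GV values include the 2 libraries with few oocyte marker counts. Against Nat10-ZcKO GV replicate 3 alone, a single library assumed to vary as the WT GV libraries do, the log2 fold changes were -0.72 ± 0.34 for Kif23 (unadjusted p = 0.040, edgeR adjusted p = 0.32) and -1.05 ± 0.40 for Kif14 (unadjusted p = 0.012, adjusted p = 0.19), with 0 of 17 members called, beside 2.01% of 3879 genes, and 2 at an unadjusted p under 0.05, beside 14.3%. Kif2c at 1.25 ± 0.75 (edgeR adjusted p = 0.91) rested on Nat10-ZcKO GV replicate 2: without that library it was -0.07, and with replicate 3 alone it was 0.14 ± 0.42.

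At MII, 0 of 12 members tested were called by edgeR between Nat10-ZcKO and WT, beside 0.191% of 2097 genes, 0 had an unadjusted p under 0.05, beside 2.29%, and DESeq2 called 0, beside 0.429%. The median log2 fold change of the members was 0.66, beside 0.37 over all genes tested. Kif23 had 0.91 ± 1.90 and Kif22 1.77 ± 1.20, both at an edgeR adjusted p of 0.997. Leaving out WT MII replicate 1 leaves the 4815-count library as the whole WT group, with the same assumption, and 8 of 15 members were then called, beside 51.7% of 2809 genes. Leaving out WT MII replicate 2 leaves 1 WT library, assumed to vary like the Nat10-ZcKO ones, and gave 0 of 14, beside 0.205% of 2924 genes, with Kif23 at 0.34 ± 0.50. The SEs of the 12 members at this depth ran from 0.88 to 1.90 on the log2 scale.

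Whether the stage difference itself differed between genotypes was tested as an interaction. 0 of 20 members were called by edgeR, beside 0.802% of 3863 genes, 1 had an unadjusted p under 0.05 (Kif21b), beside 5.51%, and DESeq2 called 0, beside 1.14%. Kif21b, a kinesin-4 motor of neurons, had 1, 1 and 5 counts in WT GV, 0, 4 and 7 in Nat10-ZcKO GV, 0 and 9 in WT MII, with 0, 2 and 0 in Nat10-ZcKO MII, and its interaction of -4.75 ± 1.99 on the log2 scale (edgeR unadjusted p = 0.017, adjusted p = 0.69) rested on WT MII replicate 2. For Kif14 the interaction was 3.15 ± 1.64 (adjusted p = 0.79) and without the 3 libraries, with 1 library in each of WT MII and Nat10-ZcKO GV, 1.94 ± 0.79 (unadjusted p = 0.021, adjusted p = 0.63 by edgeR), where 1 of 18 members had an unadjusted p under 0.05, beside 7.15%, and 0 were called, beside 0.0%.

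In acRIP-seq, fragments of RNA from WT GV oocytes were bound by anti-ac4C or by anti-IgG, and each value is the ratio of CPM in 1 library to CPM in the other, with an exact 95% interval on the counts. These intervals compare 2 libraries and not conditions. The members summed to 4089 of 970997 anti-ac4C counts and 450 of 116232 IgG counts, a ratio of 1.09 (0.987 to 1.20). A count of 0 allows 25.8 CPM in the IgG library. 35 of the 42 members had a count, 7 had 0 in both libraries, and 11 had anti-ac4C counts but no IgG count.

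The interval lay above 1 for 7 members, beside 16.0% of 11883 genes with a count, and below 1 for 4 members, beside 15.6%. With fragments on no feature counted in the library sizes, 13 members lay above 1, beside 29.4% of genes, and 2 below (Kif14 and Kif9), beside 9.25%; Kif20a, Kif2c, Kifc3, Kif1c, Kif21b and Kif26a then lay above 1, and Kif17 and Kif16b included 1. Above 1 were Kif23, with 795 anti-ac4C and 58 IgG counts and a ratio of 1.64 (1.26 to 2.18), Kif4 with 535 and 34 counts and 1.88 (1.33 to 2.75), and Kif20b with 116 and 2 counts and 6.94 (1.88 to 58.0). Kif1b (68 and 1 counts) and Kif13b (67 and 1) had ratios of 8.14 (1.41 to 326) and 8.02 (1.39 to 321). Kif1bp (70 and 0) and Kif24 (50 and 0), a kinesin-13 protein of centrioles, had lower bounds of 2.21 and 1.56. Without fragments on no feature in the library sizes, only the interval of Kif1bp lay above 2. With them, the lower bounds of Kif20b (2.92), Kif24 (2.43), Kif1b (2.19), Kif13b (2.16) and Kif4 (2.07) were above 2 as well. Below 1 were Kif14, with 217 and 61 counts and 0.426 (0.319 to 0.575), Kif17 with 386 and 72 and 0.642 (0.498 to 0.837), Kif16b, an endosome motor, with 58 and 14 and 0.496 (0.273 to 0.963), and Kif9, a motor of the sperm flagellum, with 8 and 12 and 0.0798 (0.0283 to 0.212).

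Among the 18 members with 50 or more counts the median ratio was 1.20, beside 1.27 over 4680 such genes, with 7 intervals above 1 beside 32.9% of genes and 3 below beside 19.2%. Intervals of the well counted Kif22 (377 and 54 counts, 0.836, 0.627 to 1.13) and Kif2c (349 and 34, 1.23, 0.863 to 1.80) included 1, as did that of Kif20a (166 and 17, 1.17, 0.708 to 2.05). Across these 18 members the ratio and the share of codons with C at the last base had a Spearman rho of 0.18, as a description over genes of the same pair of libraries.

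**Figure D5:**
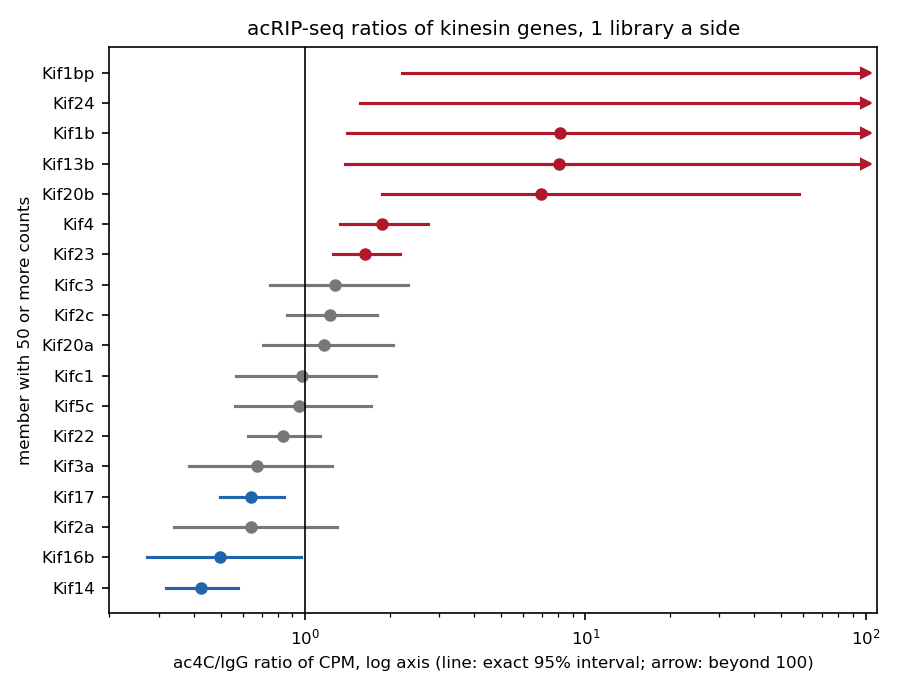
Ratio of anti-ac4C to IgG CPM (log axis) for the 18 kinesin genes with 50 or more acRIP-seq counts, with exact 95% intervals; red lies above 1, blue below 1 and grey includes 1, and arrows run beyond 100 or have no upper bound. Kif1bp and Kif24 have no IgG count and so no point; Kif14 has the lowest ratio at 0.426.

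The acRIP-seq counts also show how differently members were represented in RPFs and in RNA of the same stage. Per 100 acRIP-seq fragments of both libraries, the WT GV libraries together held 3.43 RPFs for Kifc3, 4.20 for Kif5c, 5.11 for Kifc1, 6.73 for Kif22 and 8.52 for Kif17, against 28.5 for Kif23, 46.4 for Kif14, 50.3 for Kif20a, 65.3 for Kif20b and 89.7 for Kif13b. Kif5b had 35 RPFs in WT GV but 8 acRIP-seq fragments. An immunoprecipitated library is not an mRNA library, and the assays count different parts of a gene, so these are not translational efficiencies.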

How the data were processed

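Ribo-seq was measured in 11 libraries and acRIP-seq in 2, grouped by the labels. For both assays the authors deposited raw counts per gene, whole numbers without normalization, on the CDS for Ribo-seq and on genes for acRIP-seq. The submitters' processing notes name cutadapt, STAR, HTSeq and mm10; versions and the handling of duplicates and shared reads are not given in the sources used here. In acRIP-seq, fragments on no feature were 46.7% of the IgG and 17.1% of the anti-ac4C library; such rows were left out of library sizes.

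Identifiers were matched without version to GENCODE M21 (22399 of 22442). Members were taken by symbol; 1 kinesin gene is not reported here. Members, lists and tests were chosen with earlier results of these data known. CPM used all counts of a library, and TPM the union CDS length. Tests used edgeR 4.0.16 (R 4.3.3: filterByExpr, TMM, glmQLFit, glmQLFTest, Benjamini-Hochberg adjustment over all genes tested). Standard errors are the log2 fold change over the square root of F. Genotypes were compared within a stage, and stages over 11 libraries, with genotype as a term or in 1 fit of 4 groups. DESeq2 1.42.0, library-size scaling, other filters, each library left out, and the replicate number as a block were alternatives; leaving out the 3 libraries that stand apart was added after the data were seen. Intervals are exact (Clopper-Pearson, 95%), computed in Python 3.11.15 with scipy 1.17.1. The fits were also run on simulated libraries drawn from a single mean profile. That run does not cover libraries of unlike composition, such as the 3 that stand apart. Depth was 4815 to 279464 counts per Ribo-seq library. Named genes followed a rule: the 12 members with the most RPFs, those past an unadjusted or adjusted p of 0.05 in any comparison, those whose acRIP-seq interval excludes 1, the 5 with the most acRIP-seq counts, those holding over 10% of a library's kinesin RPFs, and partners called or among the 3 with the most RPFs. Kif3a, Kif3b, Kifc3, Kif5c and Kifc5b were named after their values were seen.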

Additional observations from a re-analysis of the deposited data

How the results depend on the processing

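The number of members called at GV between genotypes was 0 under every alternative run, and at MII it was 0 under all but 1. The number of all genes called moved between settings too, and whether members or partners moved apart from it was not tested. Within WT and Nat10-ZcKO, the calls over all genes with library-size scaling, with DESeq2 and without the 3 libraries are given above. Fits without WT MII replicate 1 have replicate 2 as all of WT MII, and many genes were called in them. In the stage comparison with genotype as a term, 2 members were called, beside 42.9% of genes. DESeq2 gave 5, beside 61.0%, and the fit without the 3 libraries that stand apart 6, beside 70.2%. The filter of at least 1 count gave 0, beside 86 genes higher and 178 lower of 13685. The replicate block gave 1, beside 314 higher and 350 lower of 2000. Leaving out 1 library at a time gave 0 to 4, the upper value without WT MII replicate 2, beside 625 genes higher and 617 lower of 2482. In WT the count was 0, and 6 without the 3 libraries, 0 to 3 leaving out 1. In Nat10-ZcKO it was 0, with 3 under library-size scaling, 2 with DESeq2, 8 without the 3 libraries and 0 to 5 leaving out 1. Leaving out 1 library gave 0 to 8 at MII and 0 to 7 for the interaction, the upper values without WT MII replicate 1. Of partners, 5 were called between stages with genotype as a term, 0 with the filter of at least 1 count, 3 with the replicate block and 8 without the 3 libraries (0 to 7 leaving out 1). In WT they were 0, and 5 without the 3 libraries (0 to 9). In Nat10-ZcKO they were 0, with 4 under library-size scaling, 5 with DESeq2, 3 with only the groups compared and 7 without the 3 libraries (0 to 4). Leaving out 1 library gave 0 to 1 partner at GV, 0 to 7 at MII and 0 to 6 for the interaction. Scaling by library size in place of TMM moved the median log2 fold change of all genes from -0.86 to -0.29 in WT, from -0.37 to -0.71 in Nat10-ZcKO and from 1.04 to 0.15 for the interaction.

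Same-numbered libraries of the genotypes did not deviate together (correlations of 0.0078 to 0.058 at GV and 0.025 and 0.21 at MII), so the replicate block, which called 1 member, is given here only. Of single genes, Kif4 turned to -0.012 between stages with DESeq2, and Kif26a in WT to -0.0047 with the filter of at least 1 count and to -6.70 without the 3 libraries. Leaving out 1 library, Kif26a in WT ranged from -6.48 to 1.35, Kifc1 in WT from -4.15 to 3.48, Kif2c at GV from -0.066 to 1.45 and the interaction of Kif21b from -7.32 to 2.05. The causes were not tested. Over all genes, the calls of edgeR, DESeq2 and the filter of at least 1 count were 0, 3 and 41 at GV, 4, 9 and 0 at MII, 857, 1219 and 264 between stages with genotype as a term, 60, 297 and 9 in WT, 305, 1186 and 25 in Nat10-ZcKO and 31, 44 and 10 for the interaction.

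The summed kinesin level in WT GV was 2879 CPM with TMM-scaled library sizes, 1839 without Kif23 and 937 in TPM. In Nat10-ZcKO GV it was 910 in TPM. In WT MII it was 2617 CPM with TMM scaling, which divides the 4815-count library by a factor of 7.23, and 1562 in TPM. In Nat10-ZcKO MII it was 5800 CPM with TMM scaling, 2798 without Kif23 and 1867 in TPM. With fragments on no feature in the acRIP-seq library sizes, 13 members lay above 1 and 2 below, beside 29.4% and 9.25% of genes, against 7 and 4 without.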
